A study of Mus musculus with 32 samples.

Results

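Dexamethasone (Dex), a synthetic glucocorticoid, was compared with no Dex at day 4 of retinal organoid culture in mouse embryonic stem cells that carry a METTL3 fusion protein. The comparison rests on 4 of the 32 polyA RNA libraries of the series, 2 with Dex and 2 without, chosen by their labels and followed over all genes. All 4 came from the Rx:GFP line with Mettl3 knocked out and wild-type METTL3 overexpressed as a fusion with a domain the labels call GRBD. Per the series design the fusion protein is cytosolic without Dex and moves to the nucleus with it. Both groups were grown as organoids to day 4 in medium with 0.1 µM of a compound the labels call AGN, and 1 group also received 10 µM Dex. The cultures used for orientation at the same day were WT, the parental Rx:GFP line, and KO, that line without Mettl3 and without the fusion. Dex was given to no culture that lacked the fusion, so an action of Dex itself and an action of the moved fusion protein cannot be told apart. The labels name no clone and state no separate cultures for the duplicates, which went through separate rounds of library preparation. The p-values therefore measure a spread between duplicates that may be technical, estimated from all 32 libraries of the series and not only these 4.

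METTL3 is the catalytic subunit of the enzyme complex that places N6-methyladenosine (m6A) on RNA. The mark is read by YTH proteins and shapes splicing, export, translation and decay of the RNAs that carry it. In early embryos the anterior neural plate forms the forebrain, and a group of transcription factors within it, the eye field (Rax, Six3, Lhx2, Pax6 and others), gives rise to the optic vesicles and later the retina. More posterior neural plate becomes midbrain and hindbrain, and is marked by Iroquois and Engrailed factors. Retinoic acid and Wnt signals act on this axis, and enzymes such as Cyp26a1 degrade retinoic acid.

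Levels are FPKM, counts of fragments scaled for transcript length and library size, which can be compared between genes. Changes are Dex minus no Dex on log2(FPKM + 1), with the standard error (SE) of the fit, and understate the change of genes with low levels. A gene was called at an adjusted p under 0.05 in limma with Benjamini-Hochberg adjustment. Estimated depth was 32.1 M to 40.3 M fragments in the 4 libraries, at which 3 fragments on a 2 kb transcript correspond to 0.0372 to 0.0467 FPKM. Duplicates correlated across genes at Pearson r = 0.9933 with Dex and 0.9942 without. In bulk RNA, fewer cells of a kind and less RNA per cell cannot be told apart.

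At day 4, 6551 of 16276 tested genes were called (40.2%), 2982 higher with Dex (18.3%) and 3569 lower (21.9%). Most of these differences were small, with a median size of 0.29 on the log2 scale. A called change of at least 1 was found for 149 genes (0.915%), 84 of them higher (0.516%) and 65 lower (0.399%). With predicted genes and pseudogenes left out, the 12 largest rises included the green fluorescent reporter, the transcription factor genes Rax, Lhx2, Fezf1, Fezf2, Pax6 and Six3, and Scube1, Ermn, Mest and Hopx. Among the 12 largest falls were the Iroquois factors Irx3 and Irx5, the progenitor gene Fabp7, the retinoic acid enzyme gene Cyp26a1 and the chemokine gene Cxcl12. The libraries of the groups did not overlap for 6544 of the 6551 called genes, and for 68.6% of all tested genes.

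**Figure D1:**
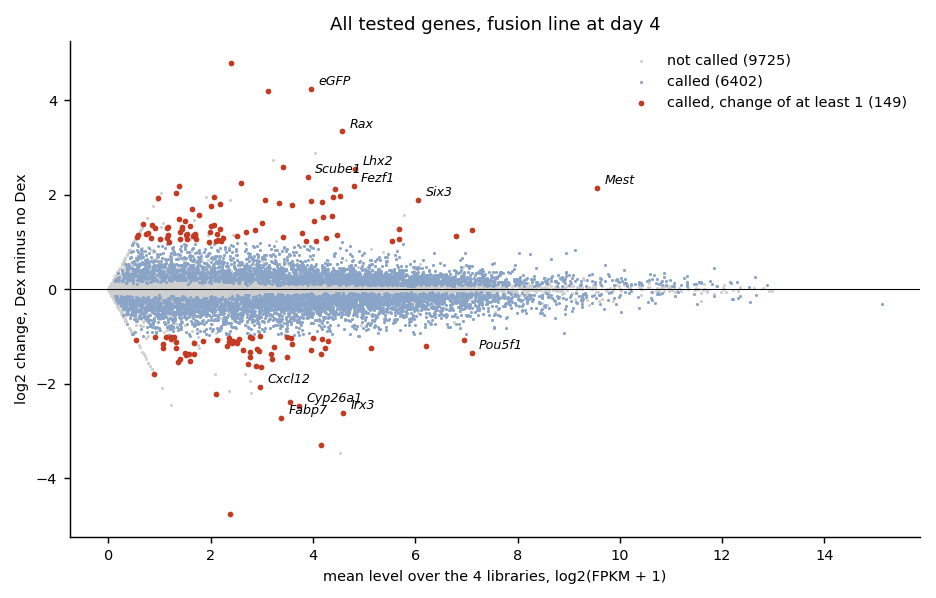
Change with Dex (vertical axis, log2) against mean level over the 4 libraries (horizontal axis, log2(FPKM + 1)) for each tested gene of the fusion line at day 4. Most called genes lie within 1 of no change, and the 149 larger changes, in red, include eGFP at 4.24, Rax at 3.34 and Fabp7 at -2.73; red points above eGFP and at the bottom are predicted genes.

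The promoters of the genes with larger changes were searched for short motifs, to show the sequences next to the genes described here. The windows were the RefSeq promoters of build GRCm38.p6, 250 bases before to 50 after each start, read on both strands, and 52 of the 84 genes that rose and 46 of the 65 that fell had one. The glucocorticoid receptor element, AGAACA and TGTTCT with 3 bases of any kind between, was in none of them, and in 3 of the 32851 promoters of the table. This exact form is so rare that so few promoters could hardly hold it, so its absence says nothing about receptor sites. TAATTA, a core bound by many homeodomain proteins, was in promoters of 6 of the 52 genes that rose (11.5%), 3 of the 46 that fell (6.52%) and 3.34% of tested genes with a promoter, and in 5.29% of all promoters of the table. TAATCC, read by homeodomains of the Otx kind, was in 9.62% of the genes that rose, 15.2% of those that fell, 7.1% of tested genes and 7.06% of all promoters. CATGTG, the core of the M-box of pigment genes, was in 7.69%, 15.2%, 10.3% and 14.2%, in the same order. The following stretches show TAATTA, in capitals, for 4 of the 6 genes that rose and held it. Each stretch lies before the RefSeq start of its window. In Tac1 the core began 100 bases before the start, and its stretch is not printed.
Wnt8b, chr19:44493413-44493464, plus strand: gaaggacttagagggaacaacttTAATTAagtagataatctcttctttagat
Robo3, chr9:37433248-37433299, minus strand: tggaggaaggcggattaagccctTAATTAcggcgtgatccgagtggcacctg
Lmo1, chr7:109175365-109175416, minus strand: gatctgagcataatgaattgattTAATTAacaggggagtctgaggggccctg
Zfp946, chr17:22424123-22424174, plus strand: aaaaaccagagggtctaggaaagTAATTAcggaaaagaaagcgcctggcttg
Wnt8b encodes a Wnt ligand, Robo3 an axon guidance receptor, Lmo1 a LIM-domain cofactor and Zfp946 a zinc finger protein. In Wnt8b the core began 36 bases before the start and in Robo3 101 bases before it.

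The Cyp26a1 promoter is shown because the gene had the third largest fall by the naming rule and is known as a direct target of retinoic acid receptors. Its proximal stretch held the receptor binding unit TGAACT in 2 copies, in capitals, 5 bases apart, which began 32 and 21 bases before the start.
Cyp26a1, chr19:37697678-37697797, plus strand: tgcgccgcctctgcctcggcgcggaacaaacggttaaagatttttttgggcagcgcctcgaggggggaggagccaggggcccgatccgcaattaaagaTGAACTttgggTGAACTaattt
Such a repeat on either strand was in 8 of the 32851 promoters (0.0244%), and the unit alone in 14%. This motif was searched after the fall of Cyp26a1 had been seen, and a match is a description of the sequence, not of binding.

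The targeted gene and the labels were checked first. Mettl3 (ENSMUSG00000022160) was at 50.47 and 53.16 FPKM without Dex and at 49.75 and 51.02 FPKM with Dex, a change of -0.04 ± 0.06 that was not called (limma adjusted p = 0.664). The row does not separate the fusion transcript from that of the endogenous gene, and its WT mean of 33.5 and KO mean of 36.6 FPKM show that it does not mark the deletion. Nr3c1, the gene of the glucocorticoid receptor, fell from 1.36 and 1.37 to 0.64 and 0.53 FPKM (-0.58 ± 0.09, limma adjusted p = 6.81e-05). The eGFP row, the reporter of the line, was at 2.77 and 2.38 FPKM without Dex and at 66.48 and 66.87 FPKM with Dex (4.24 ± 0.20, limma adjusted p = 3.89e-12). Its levels in the Dex libraries were 25.89 times those without Dex, above 31.4 and 32.26 FPKM in WT and 0.44 and 0.33 FPKM in KO. The other reporter rows, Cre, eYFP, mCherry and tdTomato, were at 0 in all 4 libraries.

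Of the 9 eye-field genes tested, 6 rose and 1 fell, with a median change of 0.20 against -0.009 over all tested genes, of which 18.3% were called higher and 21.9% lower. The median was 0.122 without Dex replicate 1, 0.306 without Dex replicate 2 and 0.943 with a pseudocount of 0.1. It was 1.883 among members with a mean of at least 5 FPKM over all 32 libraries. Genes can pass that filter through other days or cultures, so this median describes fewer, selected members and not a stronger change. Rax (ENSMUSG00000024518), the homeodomain factor whose locus the reporter follows, was at 6.51 and 6.43 FPKM without Dex and at 74.19 and 74.76 FPKM with Dex. The change was 3.34 ± 0.06 (limma adjusted p = 1.49e-17), and the Dex level was 11.51 times that without Dex. Both Dex libraries also lay above the WT libraries, at 30.7 and 31.54 FPKM, and far above KO at 1.2 and 1.21 FPKM. Lhx2 (ENSMUSG00000000247; GRCm38 chromosome 2, 38339281 to 38369733, plus strand), a LIM homeodomain factor needed for the optic vesicle, rose from 10.65 and 10.79 to 65.98 and 68.79 FPKM (2.54 ± 0.14). WT was at 14.43 and 12.97 FPKM, below both Dex libraries. Six3 (ENSMUSG00000038805; GRCm38 chromosome 17, 85613608 to 85629302, plus strand), which protects the anterior plate from Wnt signals, was at 34.55 and 33.07 FPKM without Dex and at 128.39 and 126.31 FPKM with Dex (1.88 ± 0.07). Its antisense neighbour Six3os1, named after its values were seen, rose from 3.59 and 3.10 to 14.18 and 15.78 FPKM. Whether the counting used strand is not given in the sources used here, so reads of this pair cannot be told apart.

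Pax6, the paired-box factor of eye and forebrain, went from 9.42 and 9.96 to 41.51 and 39.63 FPKM (1.96 ± 0.15, limma adjusted p = 4.91e-09). For Pax6 WT was at 5.96 and 4.19 FPKM and KO at 8.99 and 8.84 FPKM, all below both Dex libraries and below the libraries without Dex. Otx2, a head organizer factor that was abundant in every library, rose by 0.12 ± 0.03, from 203.93 and 202.42 to 222.51 and 217.85 FPKM. Nr2e1, a nuclear receptor of the forebrain, was called at 0.20 with no library above 0.31 FPKM. Its call was lost without Dex replicate 1 (0.09, limma adjusted p = 0.407), without noDex replicate 1 (0.19, limma adjusted p = 0.128) and without noDex replicate 2 (0.21, limma adjusted p = 0.0799). Mab21l2 was the eye-field member that fell, from 22.4 and 22.8 to 12.35 and 12.91 FPKM (-0.79 ± 0.05), with WT at 2.87 and 2.59 FPKM. Six6, which follows Six3 in the retina, and Tbx3 were below 1 FPKM in all 4 libraries and not called, although Six6 was called with a pseudocount of 0.1 (0.63, limma adjusted p = 0.023).

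**Figure D2:**
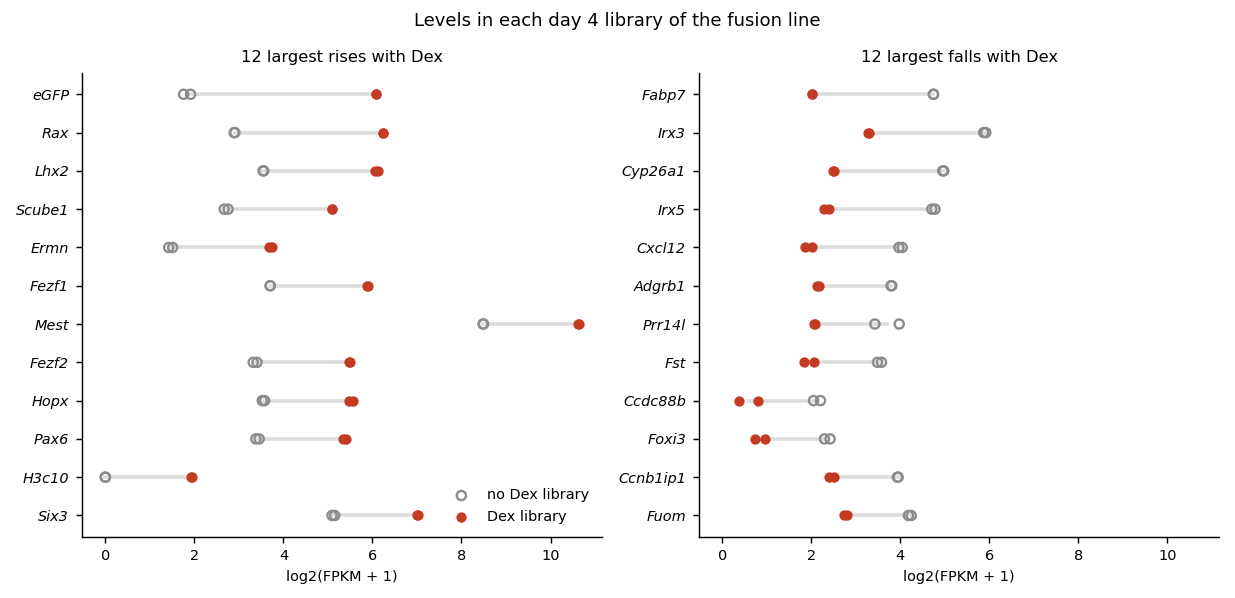
Levels on log2(FPKM + 1) in each of the 4 day 4 libraries for the 12 largest rises (left) and 12 largest falls (right) among called genes, predicted genes and pseudogenes left out. Open grey circles are the 2 libraries without Dex and red circles the 2 with Dex, and the duplicates of each group lie close together beside the distance between groups, except for Prr14l without Dex (14.72 and 9.76 FPKM).

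Later retinal and pigment genes were mostly silent at this day. Of 18 tested genes of optic vesicle and retina, 4 rose and 2 fell, with a median of -0.04. The share called was 33.3%, against 40.2% of all tested genes, and 15 of the 20 listed were below 1 FPKM in all 4 libraries. Pax2, a factor of the optic stalk, rose from 5.41 and 5.45 to 9.45 and 9.29 FPKM (0.69 ± 0.05). Vax1 and Foxd1, which pattern the ventral and temporal optic vesicle, and the photoreceptor factor Crx were called higher, with no library above 1.01 FPKM. The call of Vax1 was lost when any 1 of the 4 libraries was left out, with changes of 0.50 to 0.75 and limma adjusted p from 0.058 to 0.221.

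Of 8 tested pigment cell genes 3 rose and 1 fell, so that 50% were called against 40.2% of all tested genes. The member that fell was Rab27a, a melanosome transport gene, from 5.37 and 4.89 to 2.66 and 2.99 FPKM (-0.68 ± 0.06). Otx1, an Otx2 paralogue, rose from 5.34 and 5.74 to 21.81 and 20.76 FPKM (1.77 ± 0.04), against 1.1 and 1.17 FPKM in WT. The retinaldehyde binding protein gene Rlbp1 rose from 1.55 and 1.66 to 5.50 and 5.77 FPKM (1.35 ± 0.10), and Pmel, a melanosome protein gene, from 1.83 and 1.5 to 3.40 and 3.07 FPKM (0.67 ± 0.16). The pigment enzyme genes Tyr, Tyrp1 and Dct stayed at or below 0.06 FPKM in all 4 libraries. The list median of -0.03 turned to 0.014 without the noDex replicate 2 library. Among members with a mean of at least 5 FPKM over all 32 libraries it was 0.67, equal to the change of Pmel. Genes can pass that filter through other days or cultures, and Pmel itself was below 5 FPKM in all 4 libraries. The 0.67 therefore does not describe pigment genes abundant at day 4.

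Of 13 tested anterior forebrain genes, 10 were called higher and 0 lower, against 18.3% and 21.9% of all tested genes. Their changes ran from -0.29 to 2.18 with a median of 0.61, and 7 of the 16 listed were below 1 FPKM in all 4 libraries. Their summed level was 216.7 and 205.4 FPKM without Dex and 454.5 and 449.7 FPKM with Dex. Fezf1, a zinc finger repressor of the forebrain, rose from 12.05 and 11.99 to 58.5 and 57.81 FPKM (2.18 ± 0.05), against 13.25 and 12.62 FPKM in WT. Fezf2, its paralogue, rose from 9.0 and 9.60 to 44.42 and 43.17 FPKM (2.12 ± 0.05), against 12.36 and 12.23 FPKM in WT. The Dex libraries of both genes thus lay above the WT libraries. Hesx1, a homeodomain repressor of the earliest forebrain, rose from 76.11 and 72.86 to 159.88 and 164.53 FPKM (1.11 ± 0.13), with WT at 153.09 and 157.72 FPKM. Emx2, a factor of the dorsal telencephalon, rose from 6.16 and 3.07 to 19.32 and 16.78 FPKM (1.82 ± 0.20). Lhx5, a LIM homeodomain factor, rose from 35.57 and 33.68 to 72.52 and 75.01 FPKM.

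Of 16 tested midbrain and hindbrain genes 7 fell, 1 rose and 8 were not called, against 21.9% of all tested genes lower and 18.3% higher. The median was -0.21, and -0.117 without noDex replicate 2 and -0.725 with a pseudocount of 0.1. It was -1.277 among the fewer members with a mean of at least 5 FPKM over all 32 libraries, selected partly by other days and cultures. Of the 19 listed, 10 were below 1 FPKM in all 4 libraries. The summed level went from 140.5 and 137.7 FPKM to 50.3 and 49.3 FPKM. Irx3, an Iroquois homeodomain factor of the posterior forebrain and midbrain, fell from 59.5 and 57.55 to 8.67 and 8.80 FPKM (-2.61 ± 0.06, limma adjusted p = 7.97e-17). The level without Dex was 6.70 times that with Dex, while WT was at 4.40 and 4.91 FPKM and KO at 95.14 and 95.99 FPKM. Irx5, its neighbour in the Iroquois cluster and outside the list, fell from 26.44 and 25.1 to 3.91 and 4.30 FPKM (-2.39 ± 0.09). The other cluster showed the same direction with less change. Irx1 fell from 23.07 and 23.87 to 9.98 and 8.19 FPKM (-1.28 ± 0.11) and Irx2 from 10.97 and 10.31 to 3.54 and 4.08 FPKM (-1.28 ± 0.14).

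Dmbx1, a homeodomain factor of the midbrain, fell from 3.79 and 3.49 to 0.85 and 0.69 FPKM (-1.39 ± 0.05). Lmx1b and En1, which act at the midbrain-hindbrain boundary, fell by 0.89 and by 0.80 on the log2 scale. Wnt1, the boundary ligand, fell from 6.09 and 6.44 to 4.25 and 4.19 FPKM (-0.48 ± 0.05). Fgf8, the other boundary ligand and also a signal of the anterior neural ridge, was the member that rose, from 2.16 and 1.78 to 3.32 and 4.34 FPKM (0.70 ± 0.16). Pax5 and Gbx2 were not called.

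**Figure D3:**
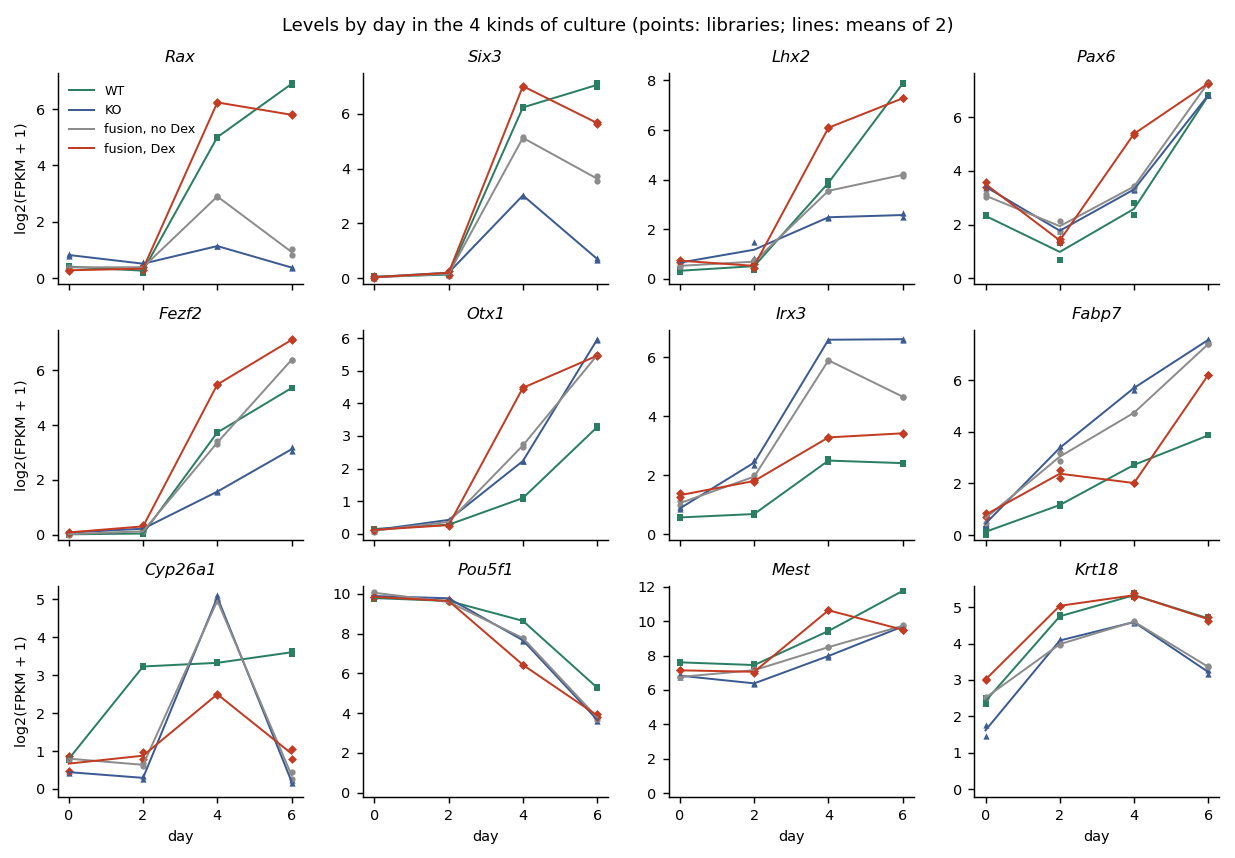
Levels on log2(FPKM + 1) at days 0, 2, 4 and 6 for 12 genes in WT (green squares), KO (blue triangles), and the fusion line without Dex (grey circles) and with Dex (red diamonds); points are libraries and lines join means of 2. At day 4 the red points lie above the grey for Rax, Six3, Lhx2, Pax6, Fezf2, Otx1, Mest and Krt18 and below them for Irx3, Fabp7, Cyp26a1 and Pou5f1, while Pax6, Otx1 and Pou5f1 nearly meet again at day 6.

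General neural progenitor genes changed in both directions. Of 13 tested 6 rose and 2 fell, with a median of 0.11 (61.5% called, against 40.2% of all tested genes). Fabp7, a fatty acid binding protein of radial glia, had the largest fall of all named genes, from 25.83 and 25.75 to 3.03 and 3.06 FPKM (-2.73 ± 0.11, limma adjusted p = 9.42e-13; GRCm38 chromosome 10, 57784881 to 57788450, plus strand). WT was at 5.50 and 5.68 FPKM and KO at 53.61 and 48.79 FPKM, so both Dex libraries lay below WT as well. Hes5, a Notch target that maintains progenitors, rose from 8.54 and 9.17 to 25.02 and 26.22 FPKM (1.43 ± 0.18). N-cadherin, Cdh2, rose from 37.12 and 37.02 to 61.27 and 61.52 FPKM (0.71 ± 0.04). Sox1, at 21.47 to 24.08 FPKM in the 4 libraries, was not called. Of 15 neuron genes 3 rose and 3 fell, with a median of -0.07 and 40% called, near the share of all tested genes. Neurog2, a proneural factor, rose from 3.87 and 3.78 to 7.70 and 7.55 FPKM (0.84 ± 0.06).

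Pluripotency genes were still present at this day and fell in part with Dex. Of 15 tested 8 fell and 4 rose, with a median of -0.23, or -0.141 without noDex replicate 1. The share called was 80%, against 40.2% of all tested genes (21.9% lower and 18.3% higher). Pou5f1 (Oct4) was at 215.91 and 219.95 FPKM without Dex and at 84.13 and 85.96 FPKM with Dex (-1.35 ± 0.05, limma adjusted p = 4.01e-13). This was below both KO, at 204.49 and 199.45 FPKM, and WT, at 396.24 and 400.99 FPKM. Nanog fell from 15.74 and 17.01 to 7.79 and 8.02 FPKM (-0.96 ± 0.04). The 4 members that rose were Dppa5a, Tdgf1, Klf5 and Esrrb, by 0.53, 0.52, 0.37 and 0.34. In the formative list 5 genes rose and 4 fell of 11, with a median of 0.07 and 81.8% called. Etv4, an FGF-responsive factor, fell most, from 9.26 and 11.07 to 5.26 and 5.28 FPKM.

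Markers of other cell kinds that such cultures can hold were read for the whole lists. Of 15 neural crest and border genes 6 fell and 1 rose, so that 46.7% were called against 40.2% of all tested genes, which is near that share. The median was -0.13, or -0.21 without noDex replicate 1 and -0.256 with a pseudocount of 0.1, and the sum went from 74.7 and 74.0 FPKM to 58.8 and 57.5 FPKM. Twist1, a mesenchymal factor, fell from 22.79 and 20.92 to 12.13 and 10.68 FPKM, while Sox10 stayed below 1 FPKM. Of 12 tested surface ectoderm genes 6 fell and 3 rose (median -0.12, 75% called). Their sums were 236.2 and 235.7 FPKM without Dex and 202.9 and 211.5 FPKM with Dex. The placodal homeodomain genes Dlx5 and Dlx6 fell by 1.09 and by 1.06, and the epithelial genes Cdh1 and Epcam fell by 0.62 and by 0.60. The keratin genes Krt8, Krt18 and Krt19 rose by 0.40, 0.73 and 0.94, while the epidermal markers Krt5, Krt14 and Trp63 were at or below 0.10 FPKM.

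Of 14 extraembryonic endoderm genes 6 rose and 0 fell (median 0.17). The share called was 42.9%, near the 40.2% of all tested genes. The sum went from 111.8 and 113.2 FPKM to 160.4 and 159.3 FPKM. Most of it was Sparc, a matrix protein gene of many tissues, which rose from 59.86 and 63.75 to 106.25 and 106.35 FPKM. The defining factors Gata4, Gata6 and Sox7 stayed below 1 FPKM, Sox17 went from 1.44 and 1.41 to 2.87 and 3.03 FPKM, and Afp was at 0 in all 4 libraries. The call of Gata4 was lost without noDex replicate 1 (0.19, limma adjusted p = 0.0861) and that of Gata6 without noDex replicate 2 (0.29, limma adjusted p = 0.0746). That of Sox7 was lost when any 1 of the 4 was left out (0.18 to 0.23, limma adjusted p from 0.0797 to 0.167). Of 7 tested mesendoderm genes 2 fell and 0 rose (median -0.19, 28.6% called). Their sums were 15.0 and 14 FPKM without Dex and 10.4 and 10.6 FPKM with Dex. The part of these cell kinds in the other changes was not tested.

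**Figure D4:**
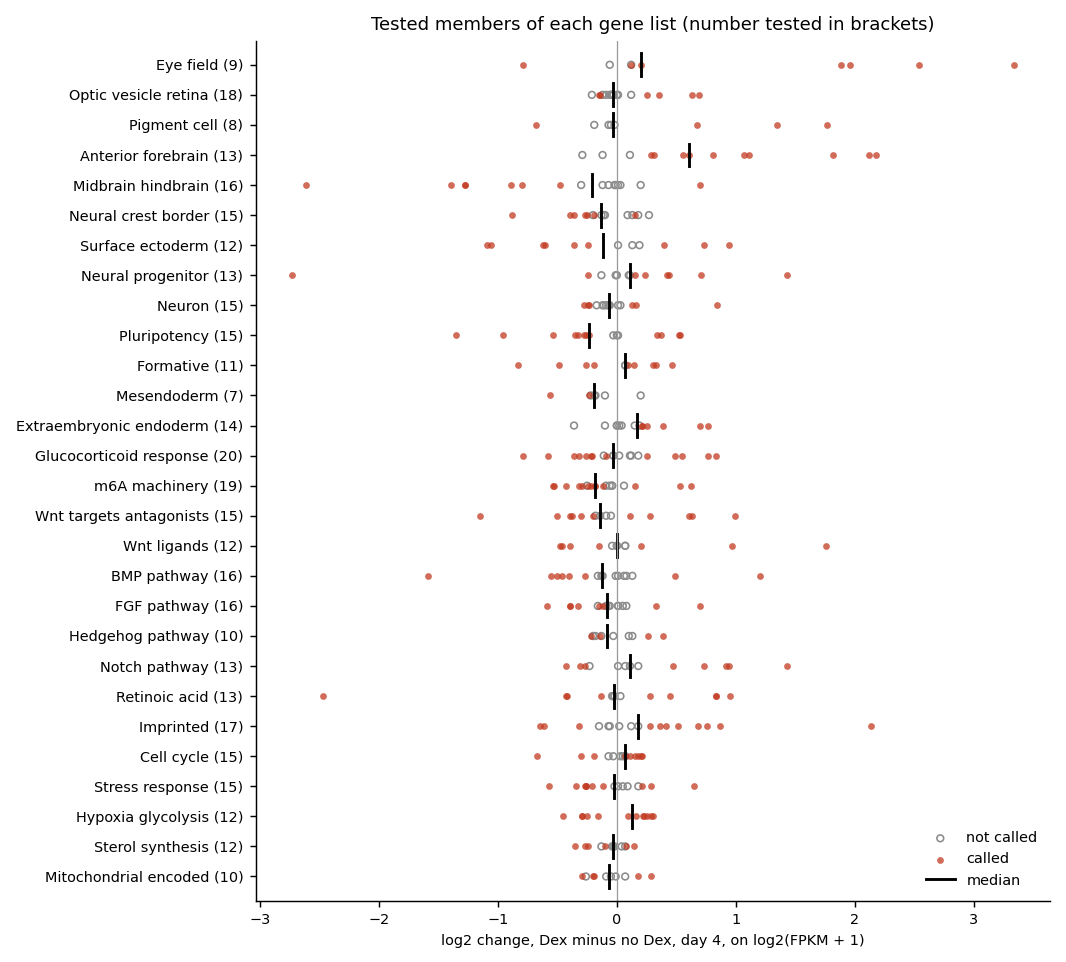
Change with Dex at day 4 (log2) of each tested member of the 28 gene lists, with the number tested in brackets; red points are called, open grey points are not, and black bars are list medians. Anterior forebrain genes have the highest median, 0.61, and pluripotency and midbrain and hindbrain genes the lowest, -0.23 and -0.21, and most lists hold members on both sides of 0.

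Signalling genes were read by ligand, inhibitor and target. Of 12 tested Wnt ligands 3 rose and 4 fell, with a median of -0.00 (58.3% called, against 40.2% of all tested genes). Wnt8b, a ligand of the dorsal forebrain midline, rose from 1.2 and 1.18 to 6.30 and 6.49 FPKM (1.76 ± 0.07), against 0.24 and 0.48 FPKM in WT. Wnt5b rose from 4.74 and 4.37 to 9.69 and 9.99 FPKM (0.97 ± 0.08), and Wnt10b fell by 0.46. Wnt10b was not called with a pseudocount of 0.1 (-0.79, limma adjusted p = 0.0592). Among 15 Wnt targets and antagonists 5 rose and 6 fell (median -0.14, 73.3% called). The targets Sp5, Ccnd1 and Axin2 fell by 1.15, by 0.50 and by 0.39, and the secreted antagonists Frzb and Dkk1 rose by 0.99 and 0.63. Further members, not named here, were called in each direction. The list sum went from 256.4 and 256.1 FPKM without Dex to 304.8 and 308.0 FPKM with Dex. Sp5 went from 7.58 and 6.46 to 2.74 and 2.47 FPKM and Frzb from 16.16 and 15.65 to 32.44 and 32.54 FPKM.

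In the BMP list 2 of 16 rose and 6 fell (median -0.13), so that 50% were called against 40.2% of all tested genes. The antagonists moved apart, since the activin and BMP binding protein follistatin, Fst, fell from 10.92 and 10.21 to 2.55 and 3.18 FPKM (-1.59 ± 0.12) while Grem1 rose from 0.70 and 0.79 to 3.16 and 2.87 FPKM (1.2 ± 0.05). The BMP targets Id1 and Id2 fell by 0.55 and by 0.50, and Id3 rose by 0.49. Bmp4 differed widely between duplicates, at 10.8 and 6.56 FPKM without Dex and 12.24 and 4.69 FPKM with Dex, and was not called (-0.12). Its change was 0.49 without Dex replicate 2 and 0.20 without noDex replicate 1. Of 16 FGF genes 2 rose and 6 fell (median -0.08, 50% called). The response genes Etv1, Etv5 and Dusp6 fell by 0.59, by 0.39 and by 0.39. Of 10 hedgehog genes 2 rose and 2 fell (median -0.08, 40% called), and Shh was at or below 0.01 FPKM.

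Notch genes rose for 5 and fell for 3 of 13 (median 0.11), so that 61.5% were called against 40.2% of all tested genes. The ligands Dll1 and Jag1 rose by 0.94 and 0.92, and Lfng, a glycosyltransferase that tunes the receptors, rose by 0.73. Jag1 went from 4.39 and 4.58 to 9.51 and 9.19 FPKM, and Dll1 from 4.76 and 6.15 to 11.27 and 11.28 FPKM. The ligand Jag2 and the target Nrarp fell by 0.43 and by 0.27.

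Retinoic acid genes rose for 5 and fell for 4 of 13 (median -0.02), so that 69.2% were called against 40.2% of all tested genes. Cyp26a1 (ENSMUSG00000024987), the degrading enzyme whose promoter repeat is printed above, fell from 29.96 and 30.47 to 4.70 and 4.59 FPKM (-2.47 ± 0.10, limma adjusted p = 9.42e-13), against 8.93 and 9.12 FPKM in WT and 33.43 and 31.01 FPKM in KO. The receptor genes Rara and Rarg fell by 0.42 and by 0.13. Dhrs3, which turns retinaldehyde back to retinol, fell by 0.43, and was not called without Dex replicate 1 or without noDex replicate 1 (-0.39 and limma adjusted p = 0.0618 in both). Rarg was not called without noDex replicate 2 (-0.12, limma adjusted p = 0.0511). The synthesis enzyme Aldh1a2 rose from 0.11 and 0.11 to 1.03 and 0.92 FPKM (0.83 ± 0.07), and Stra6, a retinol uptake receptor gene, rose by 0.95. Crabp2, a retinoic acid carrier gene, and Rdh10, a retinol dehydrogenase gene, rose by 0.45 and 0.28. Rdh10 was not called without Dex replicate 2 (0.24, limma adjusted p = 0.109), without noDex replicate 1 (0.17, limma adjusted p = 0.228) or with only the 4 libraries in the fit (0.28, limma adjusted p = 0.143). Stra6 went from 0.64 and 0.54 to 2.02 and 2.10 FPKM.

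Known targets of the glucocorticoid receptor did not move as 1 group at day 4. Of 20 tested 5 rose and 8 fell, with a median of -0.03. The share called was 65%, against 40.2% of all tested genes (18.3% higher and 21.9% lower). The summed level, which follows the most abundant members and not the list as a whole, went from 1368.0 and 1385.8 to 1893.7 and 1891.8 FPKM. Tsc22d3 (Gilz) rose from 10.48 and 10.19 to 15.33 and 15.96 FPKM (0.55 ± 0.07) and Sgk1, a kinase gene, by 0.49. The metallothionein genes Mt1 and Mt2 rose by 0.77 and 0.83, and both had higher WT levels, with means of 924.4 and 1167.9 FPKM. Fkbp5, a chaperone gene that is a common marker of receptor activity, was at 21.74 and 22 FPKM without Dex and 21.3 and 21.53 FPKM with Dex and was not called (-0.03 ± 0.03, limma adjusted p = 0.55). Per1, a clock gene, was not called, and Cebpb and Cebpd fell by 0.79 and by 0.58. At day 2, 4 of the 20 were called higher with Dex and 6 lower (12.7% and 31.5% of all tested genes). At day 6, 12 were called higher and 0 lower, with a median of 0.23 (23.8% and 19% of all tested genes).

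In the m6A machinery 3 of 19 genes rose and 10 fell (median -0.18). The share called was 68.4%, against 40.2% of all tested genes (21.9% lower and 18.3% higher). The writer partner Wtap fell from 99.34 and 99.19 to 68.14 and 68.58 FPKM (-0.53 ± 0.03), and Rbm15, which guides the complex to RNA, fell by 0.43. The nuclear reader Ythdc1 fell from 111.64 and 114.29 to 76.52 and 78.07 FPKM (-0.54 ± 0.04), and Ythdf2, a reader that promotes decay, fell by 0.32. The 3 that rose were the readers Igf2bp1, Igf2bp2 and Igf2bp3, by 0.15, 0.62 and 0.53. Igf2bp1 was not called without Dex replicate 2 (0.13, limma adjusted p = 0.0936) or without noDex replicate 1 (0.13, limma adjusted p = 0.0833). Mettl14, the partner of METTL3, was not called.

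Imprinted genes rose for 8 and fell for 3 of 17 (median 0.18), so that 64.7% were called against 40.2% of all tested genes. Mest (ENSMUSG00000051855; GRCm38 chromosome 6, 30723547 to 30748465, plus strand), a paternally expressed hydrolase gene, was the most abundant of the larger changes. It rose from 359.69 and 357.04 to 1589.62 and 1582.01 FPKM (2.14 ± 0.06, limma adjusted p = 4.08e-15), above 666.49 and 710.09 FPKM in WT. Peg10, Nnat and Peg3 rose by 0.87, 0.76 and 0.68, and Dlk1 and Igf2r fell by 0.65 and by 0.61. Dlk1 was not called with only the 4 libraries in the fit (-0.65, limma adjusted p = 0.0581). Housekeeping lists shifted by less. All 12 tested hypoxia and glycolysis genes were called, 7 higher and 5 lower, within -0.45 to 0.30 (median 0.13). Cell cycle genes rose for 6 and fell for 3 of 15 (median 0.07, 60% called). Sterol synthesis genes rose for 2 and fell for 4 of 12 (median -0.04, 50% called). Stress genes rose for 3 and fell for 7 of 15 (median -0.02, 66.7% called). Mitochondrial transcripts rose for 2 and fell for 3 of 10 (median -0.07, 50% called).

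Further named genes lay outside the lists. Scube1, a secreted membrane-tethered protein, rose from 5.36 and 5.76 to 33.16 and 33.15 FPKM (2.38 ± 0.07), and Ermn, known from myelin, from 1.68 and 1.85 to 11.81 and 12.48 FPKM (2.25 ± 0.05). Hopx, an atypical homeodomain protein, rose from 10.51 and 10.93 to 43.32 and 46.18 FPKM (1.96 ± 0.11). The histone gene H3c10 was listed at 0 in both libraries without Dex and at 2.88 and 2.77 FPKM with Dex. Its transcript belongs to a class without polyA tails and with near-identical copies, so its value is uncertain. Cxcl12, a chemokine gene that guides migrating cells, fell from 15.47 and 14.65 to 3.05 and 2.60 FPKM (-2.07 ± 0.07), with WT at 16.44 and 15.87 FPKM and KO at 13.2 and 13.25 FPKM. The Dex libraries thus lay below every library of the other 3 groups at this day.

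Adgrb1, an adhesion receptor, and Foxi3, a forkhead factor of the placodes, fell by 1.65 and by 1.51. Ccdc88b, Ccnb1ip1 and Fuom fell by 1.53, by 1.49 and by 1.44. Prr14l fell by 1.63 ± 0.44, and without the noDex replicate 1 library its change was -1.35 and no longer called (limma adjusted p = 0.0685). Of the 149 genes, 37 had symbols of predicted genes or pseudogenes, which the naming rule leaves out and whose values are uncertain. Some of these had larger changes, among them Gm10359, named after its values were seen, at 57.89 and 51.38 FPKM without Dex and 27.68 and 0.12 FPKM with Dex.

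The 149 larger changes were then followed in libraries that the day 4 comparison does not use. Of the 84 genes that rose, 15 were called higher with Dex at day 2 (12.7% of tested genes were) and 6 were called lower (31.5%). At day 6 the numbers were 35 higher (23.8%) and 12 lower (19%). Of the 65 genes that fell, 28 were called lower at day 2 and 3 higher, and at day 6 13 were called lower and 17 higher. Compared with KO minus WT at day 4, 68 of the 84 rises and 55 of the 65 falls had the opposite sign. Together that was 82.6% of the 149, against 66.2% of all tested and 78.8% of all called genes. Without 1 library the share was 76.6% to 80.6%, a range that holds the 78.8% of all called genes. Compared with the change of WT from day 2 to day 4, 71 of the 84 rises and 28 of the 65 falls had the same sign. Together that was 66.4%, against 54.6% of all tested and 58.7% of all called genes.

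The Dex effect itself was tested between days by interaction contrasts in limma. It differed between day 4 and day 2 for 5087 genes (31.3%), more positive at day 4 for 3374 (20.7%) and more negative for 1713 (10.5%). Between day 4 and day 6 it differed for 6704 genes (41.2%), more positive at day 4 for 2759 (17%) and more negative for 3945 (24.2%). At day 2 Rax was low in both groups, at 0.32 and 0.30 FPKM without Dex and 0.31 and 0.22 FPKM with Dex. At day 6 Rax was at 0.79 and 1.03 FPKM without Dex and 53.89 and 55.52 FPKM with Dex, and its Dex effect was smaller at day 4 by 1.53 ± 0.09 (limma adjusted p = 1.47e-10). Six3 kept its difference, with no call between the days (-0.15 ± 0.10, limma adjusted p = 0.261). Lhx2 had a smaller effect at day 4 than at day 6 (-0.54 ± 0.19, limma adjusted p = 0.03).

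Several of the day 4 differences closed by day 6. Pax6 was at 156.45 and 152.45 FPKM without Dex at day 6 and at 153.51 and 148.74 FPKM with Dex, and its effect was larger at day 4 by 1.99 ± 0.21 (limma adjusted p = 3.71e-07). Otx1 was at 43.58 and 43.54 FPKM without Dex at day 6 and at 42.69 and 43.54 FPKM with Dex. Pou5f1 went from 779.19 and 764.64 FPKM without Dex at day 2, against 813.29 and 787.04 FPKM with Dex, to 13.56 and 12.08 FPKM at day 6, against 14.75 and 12.79 FPKM. Its libraries with and without Dex thus overlapped at day 6 and were separate at day 4. Cyp26a1 was at or below 1.09 FPKM in the fusion line at days 2 and 6 and higher in each of the 4 libraries of day 4. Irx3 and Fabp7 remained lower with Dex at day 6, at 9.53 and 9.91 against 24.27 and 24.41 FPKM and at 73.76 and 72.44 against 170.14 and 167.63 FPKM. Mest was slightly lower with Dex at day 6, at 726.41 and 722.03 against 834.48 and 863.83 FPKM.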

How the data were processed

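PolyA RNA of mouse retinal organoids was sequenced in 32 libraries, 16 groups of 2. The authors deposited 1 table of FPKM values per gene and library; STAR, Cuffdiff and build mm10 stand in the submitters' processing notes, while versions and annotation are not given in the sources used here. Groups came from the labels. The members and gene lists were chosen with earlier results of these data known.

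limma 3.58.1 in R 4.3.3 was fitted to log2(FPKM + 1) of the 16276 genes with at least 1 FPKM in at least 2 of the 32 libraries, with 16 group means, an intensity trend and 16 residual degrees of freedom. Tests were two-sided with Benjamini-Hochberg adjustment at 0.05. Where a symbol had several rows, that with the highest mean over the 32 libraries was used. Depth was estimated from the steps of low FPKM values, of which 87.7% to 89.6% lay within 0.2 of whole fragments (40.0% by chance), which was too few to recover counts. The fit was tried on 5 simulated sets with independent normal noise, with 200 of 16276 genes changed in each. It recovered 71.5%, 87.0% and 92.3% of changes of 0.5, 1 and 2, with 5.1% false calls. This noise met the assumptions of the fit by design, so the rates need not hold for the real libraries.

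Named were Mettl3, Nr3c1 and eGFP, list members, the 12 largest called rises and falls with groups that do not overlap, and the 4 largest in each direction of each interaction contrast, leaving out predicted genes and pseudogenes. Coordinates are GENCODE M21 on GRCm38, matched by Ensembl ID, and promoters are RefSeq windows. Same-numbered libraries did not deviate together (correlation -0.056 for the 2 groups), so numbers were not used to pair. Alternatives were another pseudocount, other filters, another scaling, fewer samples, a replicate block and leaving out each library. Some list members are not reported here by name.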

Additional observations from a re-analysis of the deposited data

Results flagged for a closer look

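The effect of Dex at day 4 differed from that at day 2 for 5087 genes and from that at day 6 for 6704 genes, by interaction contrasts in limma. Against day 2 the genes with the largest more positive effects at day 4 were eGFP (4.40), Rax (3.39), Lhx2 (2.72) and Scube1 (2.51), all on the log2 scale. Those with the largest more negative effects were Bc1 (-3.72), Cxcl12 (-2.81), Cyp26a1 (-2.71) and Irx3 (-2.46). Bc1, a small neuronal RNA gene, was at 0 in all 4 libraries of day 4, and its call (limma adjusted p = 0.0372) was lost when any 1 of these was left out, with the difference still at -3.72 and limma adjusted p from 0.0776 to 0.0794. It was also lost with no filter on low values (-3.72, limma adjusted p = 0.0815).

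Against day 6 the largest more positive effects were those of Scube2 (2.55), Efnb2 (2.47), H3c10 (2.46) and Wnt8b (2.40). Efnb2, an ephrin ligand gene, was at 8.75 and 8.38 FPKM without Dex and 33.47 and 33.57 FPKM with Dex at day 4. The largest more negative effects were those of Trpm1 (-4.97), Slc38a8 (-4.31), Tbx2 (-4.10) and Pmel (-4.03). These 4 genes rose with Dex at day 6. Trpm1, a channel gene of pigment cells, went from a mean of 0.595 to 46.7 FPKM there, and Tbx2, a T-box factor of the dorsal optic vesicle, from 0.445 to 22.7 FPKM. Slc38a8, an amino acid transporter gene, went from 0.045 to 21.0 FPKM and Pmel from 0.315 to 33.1 FPKM.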

How the results depend on the processing

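The 6551 calls became 4741 to 6507 under the 6 alternatives that keep all 4 libraries, and 5275 to 5329 without 1 library. The lowest, 4741, came from the 4 libraries alone, with 2 residual degrees of freedom. Rescaling by median-of-ratios gave 6491, of which 49.7% were higher with Dex against 45.5%. The number of changes of at least 1 was 596 with a pseudocount of 0.1 and 81 among genes with a mean of at least 5 FPKM, where fewer genes are tested, and 160 to 177 without 1 library. With a pseudocount of 0.1 the median was 0.943 for the eye field, -0.136 for pigment cells, -0.256 for neural crest and border, and -0.725 for midbrain and hindbrain. Among genes with a mean of at least 5 FPKM it was 1.883, 0.67 (pigment cells, reversed) and -1.277 (midbrain and hindbrain). That mean is over all 32 libraries, so members can pass through other groups, and these medians describe fewer, selected members.

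Without 1 library, where the lone sample is assumed to vary like the other groups, medians ranged from 0.122 to 0.306 (eye field), -0.036 to 0.014 (pigment cells), -0.21 to -0.14 (neural crest), -0.308 to -0.117 (midbrain and hindbrain), -0.256 to -0.141 (pluripotency) and -0.045 to -0.016 (glucocorticoid response). Differences between days were called for 4209 to 4399 genes (day 2) and 5955 to 6055 (day 6). The share against KO minus WT was 76.6% to 80.6%, below the 82.6% of the main fit, and with the WT course 61.6% to 68.8%. Bmp4, not called, ranged from -0.73 to 0.49 without 1 library, and was at 0.49 without Dex replicate 2 and 0.20 without noDex replicate 1. With the replicate number as a block, 6507 genes were called, 149 of them by at least 1, and no named gene changed its call. With only the 4 libraries in the fit, Nr2e1, Vax1, Gata4 and Gata6 were also not called (limma adjusted p = 0.185, 0.0532, 0.0637 and 0.0588), nor with no filter on low values Nr2e1, Vax1 and Sox7 (limma adjusted p = 0.0721, 0.0875 and 0.0519).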
